A study of Mus musculus with 9 samples.

Results

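Cholesterol is built from acetyl-CoA by the mevalonate pathway, and 8 enzymes of that pathway are described here across the urogenital sinus (UGS) of mouse fetuses and newborns. They are Hmgcs1, Idi1, Fdps, Fdft1, Sqle, Lss, Cyp51 and Dhcr7. By the brightest probe set of each gene, all 8 transcripts had lower signals at birth than at embryonic day 18 (E18) in every exposure group, by 0.28 to 0.46 log2 units on average, and no single difference passed the adjusted threshold. Members were taken as every Affymetrix probe set annotated to 1 of these 8 gene symbols alone. That gave 21 probe sets of 45101 in all, of which 34958 carried a single symbol and together named 18194 genes. The brightness filter, at the 40th percentile of mean log2 signal (a signal of 41.2), was passed by 18 of the 21. The probe sets that did not pass were 1 each of Hmgcs1, Fdps and Lss, with signals of 24.1, 1.54 and 18.3 at their mean log2 level, and each of these genes kept at least 1 brighter probe set.

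The arrays came from 9 samples of C57BL/6 UGS, the embryonic tube that buds into the prostate. Pregnant females were given 1 of 2 estrogenic compounds or their vehicle. Bisphenol A (BPA), a weak estrogen used to make polycarbonate, was dosed at 20 µg/kg/day, and diethylstilbestrol (DES), a potent man-made estrogen, at 0.2 µg/kg/day. The vehicle was tocopherol-stripped corn oil, here called Control. Dosing ran from E13 to E16, and tissue was taken at E17, E18 and the day of birth (P0), with 1 array for each of BPA, DES and Control at each age. All dams, Control dams included, belonged to the same strain, and the neighbouring bladder, urethra and genital ducts were cut away from tracts of both sexes. The number of animals or litters behind an array is not stated in the labels. The 3 arrays of an agent differ in age, and the 3 arrays of an age differ in agent. The p-values therefore measure only the spread left after agent and age. That spread mixes array-to-array noise, which may be technical in part, with any differences between agents in their change with age. The agents were also given at different doses.

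In the pathway, Hmgcs1 makes HMG-CoA, Idi1 and Fdps build the isoprenoid chain, Fdft1 and Sqle make and oxidise squalene, Lss closes it into lanosterol, and Cyp51 and Dhcr7 carry lanosterol on to cholesterol. When membrane sterol is low, SREBP transcription factors are released from the endoplasmic reticulum and switch these genes on together, usually with the cofactors NF-Y and Sp1. Cholesterol also modifies Hedgehog ligands, which signal from the UGS epithelium to its mesenchyme during prostate budding.

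RefSeq promoter windows, from 250 bases before to 50 bases after an annotated start on GRCm38.p6, were in the table used here for 5 of the 8 genes, as 7 windows: 3 for Dhcr7 and 1 each for Cyp51, Lss, Idi1 and Hmgcs1. Fdps, Fdft1 and Sqle had no entry. Both strands were searched for a sterol response element (SRE) core, TCACNCCAC, for the NF-Y box, CCAAT, and for the Sp1 box, GGGCGG. The SRE letters were found in 1 of the 7 windows, that of Hmgcs1, and in 1.24% of all 32851 windows. NF-Y letters were found in 5 of 7, at least 1 for each of the 5 genes, against 37.4% of all windows, and Sp1 letters in 6 of 7, against 35.7%. No match overlapped another. The 3 windows below show Hmgcs1, whose window alone held the SRE letters, Idi1, the gene whose signals followed Hmgcs1 most closely, and Lss, whose difference between P0 and E18 was the largest of the 8. Capitals mark the SRE letters, TCACCCCAC in Hmgcs1, and every NF-Y box on either strand (CCAAT or ATTGG).
Hmgcs1: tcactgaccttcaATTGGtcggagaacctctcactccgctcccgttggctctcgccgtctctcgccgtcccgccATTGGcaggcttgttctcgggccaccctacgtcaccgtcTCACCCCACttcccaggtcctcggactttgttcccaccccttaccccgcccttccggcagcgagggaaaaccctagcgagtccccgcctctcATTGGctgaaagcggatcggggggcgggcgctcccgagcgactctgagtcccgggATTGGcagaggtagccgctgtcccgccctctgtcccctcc
Idi1: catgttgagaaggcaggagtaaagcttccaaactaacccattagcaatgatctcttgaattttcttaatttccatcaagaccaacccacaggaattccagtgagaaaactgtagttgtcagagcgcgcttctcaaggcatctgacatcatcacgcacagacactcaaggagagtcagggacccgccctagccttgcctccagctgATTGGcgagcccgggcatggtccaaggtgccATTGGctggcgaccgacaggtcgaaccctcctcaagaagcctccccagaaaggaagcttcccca
Lss: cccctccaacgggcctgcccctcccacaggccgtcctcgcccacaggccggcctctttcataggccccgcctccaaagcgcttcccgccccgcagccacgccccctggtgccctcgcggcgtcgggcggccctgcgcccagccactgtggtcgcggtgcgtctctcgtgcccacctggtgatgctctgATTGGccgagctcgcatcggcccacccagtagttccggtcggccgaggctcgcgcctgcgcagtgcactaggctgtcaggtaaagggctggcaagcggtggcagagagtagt
All 3 lie on the plus strand, Hmgcs1 at chr13:119690101-119690400, Idi1 at chr13:8885356-8885655 and Lss at chr10:76531355-76531654. In the Hmgcs1 window the SRE match begins at position -137, with the start base counted as 0, and NF-Y boxes begin at -237, -176, -45 and 10. The Idi1 window holds NF-Y boxes at -45 and -14, and the Lss window holds 1 at -62. These are matches of letters and not measured binding sites. Only the 1 SRE core given above was searched, so a window without it may still hold another form of the element.

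Deposited intensities were not on a common scale: the trimmed mean of an array was 157 for BPA P0, the dimmest, and 277 for DES E17, the brightest. All signals given here are therefore quantile-normalised, and differences are on the scale of log2(signal + 5.46). Of 36 pairs of arrays, 0 held identical values. The UGS markers fixed for the check were present on every array, with Ptch1, the Hedgehog receptor and target, at 2291 to 2890, Shh at 1136 to 1949 and Hoxd13 at 1080 to 1596. The BPA P0 array stood apart in markers of other tissues. Its summed signal over 6 genes of steroid-making cells was 3212, against 310 to 459 on the other 8 arrays, and Inha, which encodes the inhibin alpha subunit, stood at 1813 there and at 170 to 266 elsewhere. Summed Sertoli cell markers (4 genes) reached 812 on that array, against 149 to 278. Hsd3b1, Cyp17a1 and Amh, named after their values were seen, were at 886, 110 and 296 on the BPA P0 array and at 11.9 or less on every other. Of the remaining steroid-cell genes, Nr5a1 was high there too, at 262.5 against 11.1 to 58.9 elsewhere. Star was not (101, against 37.6 to 121.5), and Cyp11a1 was at 38.8 against 20.2 to 33.9. Only 2 of the 6 steroid-cell genes, Inha and Star, passed the brightness filter. A set of 6 cornifying-epithelium genes summed to 20240 on BPA P0 and 8010 on BPA E18, against 1207 to 2368 on the other 7. Members' medians without the BPA P0 array are given below for P0 against each fetal age and for BPA against Control and DES. Differences of the other gene lists are given only with that array.

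**Figure D1:**
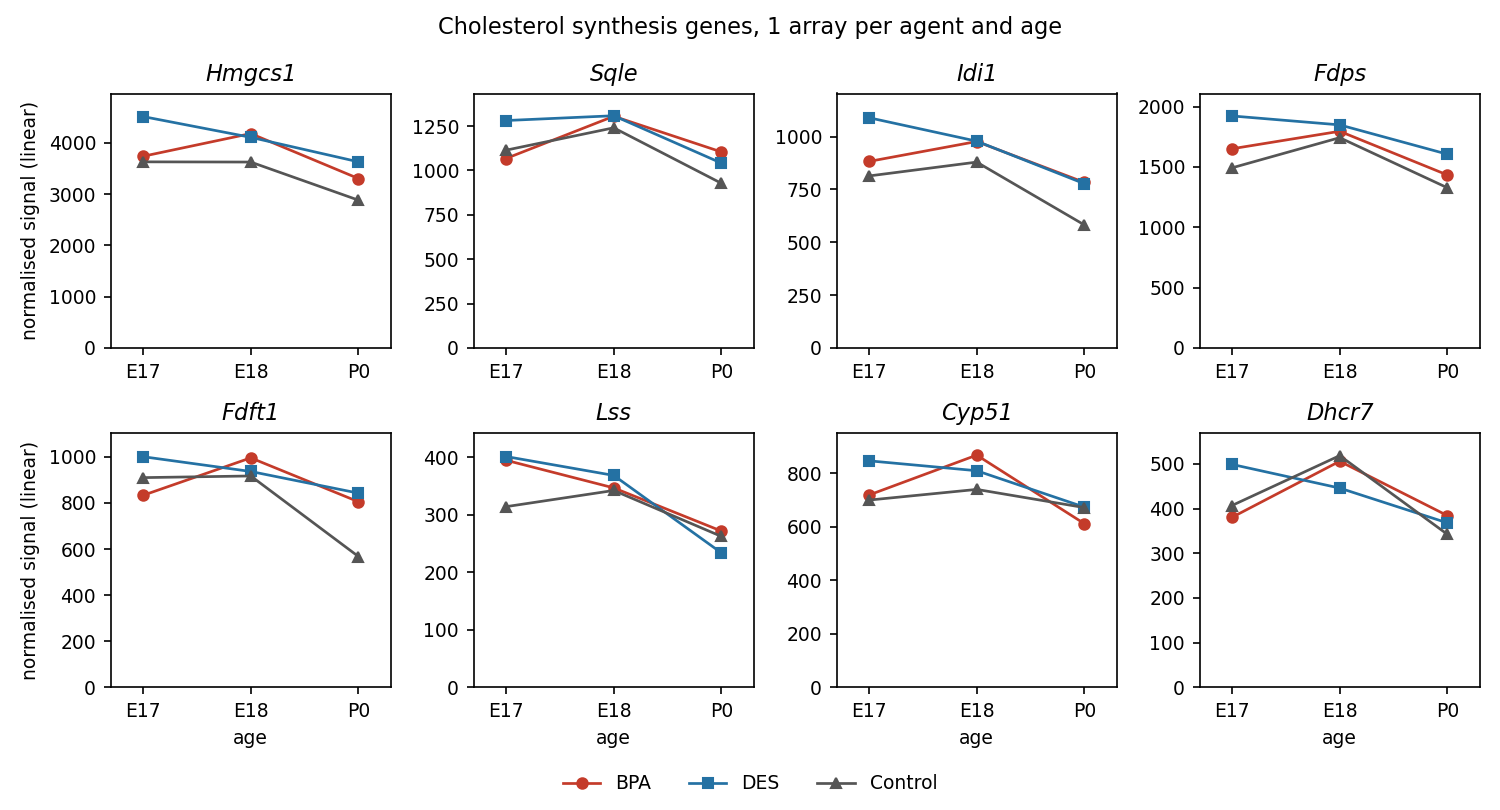
Normalised signal (linear scale) of the brightest probe set of each of the 8 genes at E17, E18 and P0, with 1 array per point for BPA, DES and Control and lines joining the ages of an agent. In every panel each agent's P0 point lies below its E18 point.

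The entry steps of the pathway were read first. Hmgcs1 condenses acetyl groups into HMG-CoA, the substrate of the statin-sensitive reductase. Its brightest probe set gave signals at E17, E18 and P0 of 3736, 4179 and 3302 with BPA, of 4511, 4106 and 3628 with DES, and of 3628, 3624 and 2881 in Control. P0 arrays were the lowest of each agent, though the DES P0 array (3628) lay level with the Control E18 array (3624), so the ages just overlapped. By age, Hmgcs1 averaged 3270 ± 374 at P0, 3970 ± 301 at E18 and 3958 ± 482 at E17 (SD, n = 3 arrays, 1 of each agent). The model difference between P0 and E18 was -0.28 ± 0.07 log2 units (SE; limma adjusted p = 0.246).

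Idi1, which interconverts the small isoprenoid building blocks, gave 882, 976 and 783 with BPA at E17, E18 and P0, 1089, 978 and 777 with DES, and 814, 879 and 582 in Control. All P0 arrays lay below all E18 and all E17 arrays, with the Control P0 array well under the rest. Its P0 minus E18 difference was -0.41 ± 0.10 (limma adjusted p = 0.25). Fdps joins those units into farnesyl diphosphate, which also feeds protein prenylation. Fdps signals at E17, E18 and P0 were 1650, 1795 and 1433 with BPA, 1922, 1848 and 1605 with DES, and 1492, 1742 and 1327 in Control. The P0 arrays were below the E18 arrays, and the E18 values were tight across agents (P0, 1455 ± 140; E18, 1795 ± 53.0; SD, n = 3 each). The difference was -0.31 ± 0.08 (limma adjusted p = 0.256).

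Fdft1, squalene synthase, commits farnesyl diphosphate to sterols. It gave 833, 996 and 805 with BPA at E17, E18 and P0, 1001, 937 and 843 with DES, and 910, 917 and 568 in Control. The Control P0 array was the lowest of the 9 by a wide margin, and the P0 minus E18 difference was -0.30 with BPA, -0.15 with DES and -0.69 in Control. The model gave -0.38 ± 0.13 (limma adjusted p = 0.286). Sqle, squalene epoxidase, is an oxygen-dependent and rate-limiting step. Sqle signals were 1067, 1305 and 1104 with BPA, 1281, 1308 and 1041 with DES, and 1114, 1240 and 927 in Control, in the same order of ages. P0 averaged 1024 ± 89.8 and E18 1285 ± 38.6 (SD, n = 3 each), with no overlap, while the E17 arrays overlapped those at P0. The model difference between P0 and E18 was -0.33 ± 0.09 (limma adjusted p = 0.268).

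Lss, lanosterol synthase, closes the sterol rings. Its brightest probe set gave 395, 347 and 272 with BPA at E17, E18 and P0, 402, 369 and 234 with DES, and 314, 343 and 263 in Control. P0 lay below both fetal ages without overlap, at 256 ± 19.8 against 353 ± 14.0 at E18 and 370 ± 48.6 at E17 (SD, n = 3), and the model differences were -0.46 ± 0.13 against E18 and -0.52 ± 0.13 against E17 (limma adjusted p = 0.269 and 0.127). A dimmer Lss probe set did not show this difference (-0.02 ± 0.13 against E18). Cyp51, the lanosterol demethylase and a target of azole drugs in fungi, gave 718, 868 and 611 with BPA, 846, 809 and 673 with DES, and 700, 739 and 671 in Control. Its P0 arrays were the lowest 3, but Control P0 lay only slightly under Control E17, and the P0 minus E18 difference was -0.30 ± 0.10 (limma adjusted p = 0.293). Dhcr7 performs the last reduction to cholesterol, and its loss causes Smith-Lemli-Opitz syndrome in humans. Dhcr7 signals were 380, 506 and 384 with BPA, 499, 446 and 368 with DES, and 407, 518 and 342 in Control. P0 (365 ± 21.2) and E18 (490 ± 38.8, SD, n = 3 each) did not overlap, whereas with BPA the P0 array (384) was close to the E17 array (380). Its P0 minus E18 difference was -0.42 ± 0.13 (limma adjusted p = 0.278).

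Between P0 and E18 each of the 8 genes, by its brightest probe set, was lower at P0 within BPA, within DES and within Control. The median of the 8 model differences was -0.36 log2 units, with folds between 0.729 (Lss) and 0.822 (Hmgcs1), while the median of all 26999 tested probe sets was -0.01. After Benjamini-Hochberg adjustment over all 26999, limma called 0 of the 8 (adjusted p = 0.246 to 0.293) and 0% of all probe sets, whose lowest adjusted p was 0.236. An unadjusted p under 0.05 was reached by 8 of 8 in the lower direction, against 7.52% of all probe sets. P0 arrays lay wholly below E18 arrays for 7 of 8, all but Hmgcs1, against 7.34% of all probe sets. Over the single pairs the members' median was -0.33 with BPA, -0.27 with DES and -0.40 in Control. Without the BPA P0 array the median was -0.44, with the 8 genes between -0.49 (Idi1) and -0.24 (Cyp51), and without the Control P0 array it was -0.32. Leaving out both gave -0.37, with all 8 still lower (an alternative chosen after seeing the data), and 0 were called in any of these. Without the DES P0 array limma called 663 of all probe sets but 0 of the 8.

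**Figure D2:**
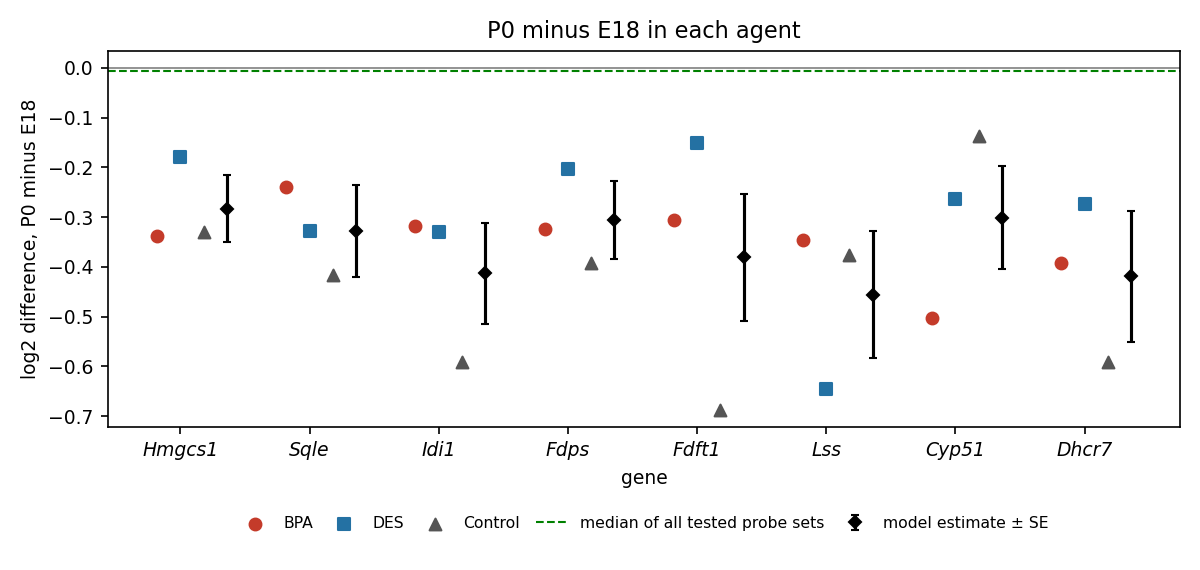
Difference P0 minus E18 in log2 units for the brightest probe set of each gene, as single array pairs for BPA, DES and Control and as the limma estimate over the 9 arrays with its SE (black). All points lie below 0 and below the median of all tested probe sets (dashed line, -0.01).

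Against E17 the P0 arrays were lower for 8 of 8 members too, by 0.17 (Sqle) to 0.52 (Lss) log2 units, with a median of -0.25 beside -0.01 for all probe sets. Both comparisons share the P0 arrays. Limma called 0 of 8 (adjusted p = 0.127 to 0.416), against 0.0926% of all probe sets (25). That count was 1606 without the DES P0 array and 0 without the Control E17 or the DES E17 array, with 0 of 8 members in each. Without the BPA P0 array the members' median was -0.29, with the 8 genes between -0.54 (Lss) and -0.15 (Cyp51). Unadjusted p was under 0.05 for 5 of 8 (Hmgcs1, Idi1, Fdps, Fdft1 and Lss), against 9.27% of all probe sets lower at that level. The P0 arrays lay wholly below the E17 arrays for Idi1, Lss and Cyp51, 3 of 8, against 9.92% of all probe sets. Muscle markers differed in this comparison as well. Among 8 skeletal muscle genes 6 were higher at P0 and 4 were called higher, Myh8 (2.39 ± 0.19, limma adjusted p = 0.00755), Tnnt3, Tnnc2 and Mylpf, with a list median of 1.33. Acta1, the brightest of the 8 by mean level, and Ckm went the other way, at -0.40 ± 0.12 and -0.38 ± 0.25, and were not called. The summed signal of the 8 genes, Acta1 and Ckm included, was 16100 to 19360 at P0 and 11130 to 13510 at E17. Smooth muscle genes were lower for 5 of 5 (median -0.35, 0 called), with sums of 11280 to 21760 at P0 and 17870 to 24220 at E17. Proliferation markers were lower at P0 for 5 of 5 (median -0.29) and UGS markers for 6 of 7 (median -0.17), with 0 called. Hepatocyte markers were lower for 4 of 4 (median -1.46, 0 called), with sums of 202 to 1045 at P0 and 888 to 2052 at E17. Both tested red cell markers were lower (median -1.02, 0 called). Cornifying-epithelium genes were higher for 6 of 6 (median 1.255) and Sertoli cell markers for 3 of 3 (median 0.725), with 0 called. The part of any of these markers in the members' difference was not tested. Within BPA alone 2 of 8 members, Sqle (0.05) and Dhcr7 (0.01), were slightly higher at P0 than at E17. Between E18 and E17, 7 of 8 were higher with a median of 0.08 (5 of these were lower in the values as deposited), 0 of 8 passed at either level, and Lss was at -0.06 ± 0.13; 2.75% of all probe sets had an unadjusted p under 0.05 there and 0% were called. For single pairs of arrays, E18 minus E17, the members' median was 0.21 with BPA (7 of 8 higher), -0.11 with DES (7 of 8 lower) and 0.12 in Control (7 of 8 higher). Whether the agents differed in this step was not tested.

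Proliferation and UGS markers were also lower at P0, and their part in the result was not tested. Proliferation markers were lower at P0 for 5 of 5, with a median of -0.32, and summed signals of 6547 to 7327 at P0 against 7944 to 8513 at E18. Among them Mki67 was at -0.20 ± 0.07, Top2a at -0.32 ± 0.07 and Rrm2 at -0.38 ± 0.08, none called by limma (adjusted p = 0.283, 0.236 and 0.236). Of the UGS markers 6 of 7 were lower, with a median of -0.21. Their sums at P0 were 6859 with BPA, 8485 with DES and 6502 in Control, against 8337 with BPA, 8147 with DES and 8611 in Control at E18. Skeletal muscle genes were higher at P0 for 6 of 8 (median 0.34, 0 called), with sums of 16100 to 19360 at P0 and 15030 to 16340 at E18, and smooth muscle genes were lower for 4 of 5 (median -0.07, 0 called). Hepatocyte markers (4 genes) summed to 202 to 1045 at P0 and 85.7 to 2356 at E18, with the lowest sum on Control E18 and the highest on BPA E18. Both tested red cell markers were lower at P0 (median -0.67). Sertoli cell markers were higher for 3 of 3 (median 0.46), as were both tested genes of steroid-making cells (median 0.885). Cornifying-epithelium genes were higher for 3 of 6 (median 0.06). None of these was called by limma, and their part in the members' difference was not tested. In bulk tissue, fewer cells of a type and less RNA per cell cannot be told apart.

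Among the other sterol enzymes with a tested probe set, 10 of 11 were lower than at E18, with a median of -0.13, and 0 were called. Msmo1, the C4-methyl oxidase that acts after Cyp51, was at -0.45 ± 0.17, Mvd, which decarboxylates mevalonate diphosphate, at -0.32 ± 0.16, Ggps1, which draws farnesyl diphosphate into protein prenylation, at -0.25 ± 0.10, and Mvk, mevalonate kinase, at -0.23 ± 0.15. Msmo1 signals were 966, 1331 and 891 with BPA at E17, E18 and P0, 1199, 858 and 845 with DES, and 989, 932 and 552 in Control. Its Control P0 array was the lowest of the 9, as for 6 of the 8 members, and with DES its E18 and P0 arrays were nearly level. Fatty acid synthesis genes, which answer to the same SREBP family, were lower for 9 of 10, with a median of -0.15 and 0 called. Fads2, the delta-6 desaturase, was at -0.47 ± 0.10 (limma adjusted p = 0.236), Acss2, which makes acetyl-CoA from acetate, at -0.33 ± 0.14 and Scd2, a stearoyl-CoA desaturase, at -0.26 ± 0.08, whereas malic enzyme Me1 was at 0.34 ± 0.19, with 791 on the BPA P0 array and 345 to 479 on the other 8.

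Of 7 genes of sterol sensing and SREBP release, 4 were lower and 3 higher at P0 than at E18, with a median of -0.06 and 0 called. Mbtps2, the site-2 protease that frees SREBP, was at -0.31 ± 0.10, Insig1, the sterol-dependent retention protein, at -0.24 ± 0.20 and Srebf1 at -0.20 ± 0.09, while Scap, the SREBP escort, was at 0.30 ± 0.23, with 953 on BPA P0 and 437 to 631 elsewhere. Srebf2, the family member most tied to cholesterol genes and named after its values were seen, was at -0.06 ± 0.10. Of 7 uptake and transport genes 4 were lower, with a median of -0.04 and 0 called. They included Stard4, a sterol carrier, at -0.35 ± 0.11, and Scarb1, the HDL receptor, at 0.32 ± 0.16. All 3 tested export genes were higher, with a median of 0.20 and 0 called: Apoe at 0.34 ± 0.10, Abca1 at 0.20 ± 0.09 and Abcg1 at 0.19 ± 0.15. Apoe, the lipid-carrying apolipoprotein, had signals of 1062, 1161 and 1745 with BPA at E17, E18 and P0, of 906, 1045 and 1323 with DES, and of 1046, 1365 and 1450 in Control. Every agent's P0 array was its highest, and the P0 minus E17 difference of 0.58 ± 0.10 missed the threshold (limma adjusted p = 0.0666).

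**Figure D3:**
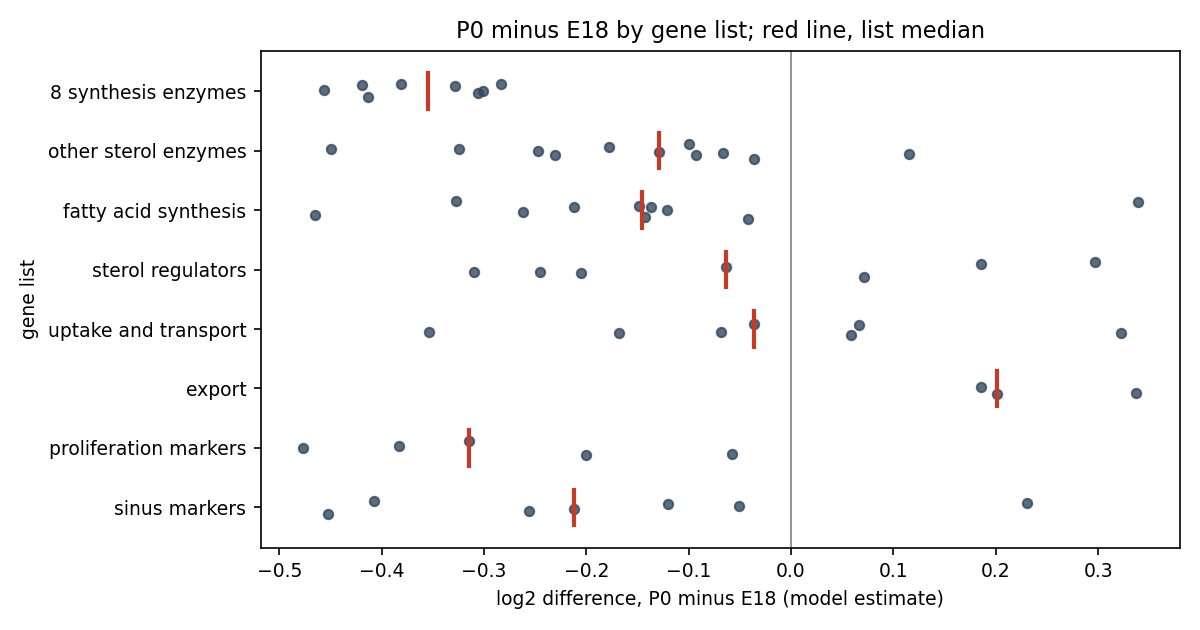
Limma difference P0 minus E18 in log2 units for each tested gene (points, spread vertically for legibility) of 8 lists, with the list median as a red line. The 8 synthesis enzymes lie at -0.46 to -0.28, and the 3 export genes lie above 0.

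DES was compared with Control to ask whether in utero estrogen exposure left a difference in these transcripts after dosing had ended. All 8 members were higher with DES averaged over the 3 ages, by 0.06 (Dhcr7) to 0.33 (Idi1) log2 units, with a median of 0.19 against 0.003 for all probe sets. Idi1 averaged 948 ± 158 with DES and 758 ± 156 in Control (SD, n = 3), a difference of 0.33 ± 0.10. Hmgcs1 averaged 4082 ± 442 with DES and 3378 ± 430 in Control (0.28 ± 0.07), and Fdps 1791 ± 166 with DES and 1520 ± 209 in Control (0.24 ± 0.08). The SDs include the differences between ages, and for 0 of 8 members were the DES arrays wholly above the Control arrays (5.87% of all probe sets were). Limma called 0 of 8 (adjusted p = 0.843 to 0.958) and 0% of all probe sets. Unadjusted p was under 0.05 for 3 of 8, Hmgcs1 (0.00244), Idi1 (0.00947) and Fdps (0.0116), against 2.9% of all probe sets higher at that level. At E17, 8 of 8 were higher with DES, by 0.14 to 0.42 and a median of 0.30, as were 17 of their 18 tested probe sets. At E18 the median was 0.09 and at P0 it was 0.22, with 7 of 8 higher at each. Each of these is 1 array against 1, with no replicate check. Among cell type markers, smooth muscle genes were higher for 5 of 5 (median 0.30; sums of 15750 to 18730 with DES and 10480 to 22280 in Control), proliferation markers for 5 of 5 (median 0.11; 7327 to 8513 with DES and 6547 to 8000 in Control), cornifying-epithelium genes for 6 of 6 (median 0.58; 1455 to 2368 with DES and 1207 to 1367 in Control) and UGS markers for 6 of 7 (median 0.08; 8147 to 8485 with DES and 6502 to 8630 in Control). Neuron and Schwann cell markers were lower for 4 of 4 (median -0.27; 3821 to 4215 with DES and 4305 to 4873 in Control). Hepatocyte markers were lower for 3 of 4 (median -0.65). None of these markers was called by limma, and their part in the members' difference was not tested.

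With BPA, 8 of 8 members were higher than in Control, by 0.01 (Dhcr7) to 0.23 (Idi1), with a median of 0.12 against -0.004 for all probe sets, but the sign turns for all 8 when the deposited, unscaled values are used (median -0.13, with all probe sets at -0.24), and for Dhcr7 with scaling to a common trimmed mean (-0.003). Idi1 averaged 881 ± 96.8 with BPA and 758 ± 156 in Control (SD, n = 3), a difference of 0.23 ± 0.10. Limma called 0 of 8 (adjusted p = 0.634 to 0.992) and 0% of all probe sets. Unadjusted p was under 0.05 for Idi1 alone (0.0479), 1 of 8 against 3.53% of all probe sets higher at that level. The BPA arrays were wholly above the Control arrays for 0 of 8, against 5.05% of all probe sets. By age, 5 of 8 were higher at E17 (median 0.04), 7 of 8 at E18 (median 0.10) and 7 of 8 at P0 (median 0.18). The P0 value sets the BPA array with high gonad and skin markers against the Control array that was lowest for 6 of 8 members. Without the BPA P0 array alone the members' median was 0.10, with Dhcr7 at -0.055. Without both of these arrays, Fdft1 was at -0.004 and Dhcr7 at -0.07. Over the 3 ages, smooth muscle genes were higher with BPA for 5 of 5 (median 0.69; sums of 21760 to 24220 with BPA and 10480 to 22280 in Control) and cornifying-epithelium genes for 6 of 6 (median 2.23; 1871 to 20240 with BPA and 1207 to 1367 in Control). Skeletal muscle genes were lower for 6 of 8 (median -0.53; 11130 to 16280 with BPA and 13510 to 16100 in Control). The exceptions were Acta1 (0.41 ± 0.12) and Ckm (0.65 ± 0.25), both higher. Neuron and Schwann cell markers were lower for 4 of 4 (median -0.27; 3856 to 4209 with BPA and 4305 to 4873 in Control). Hepatocyte markers were higher for 3 of 4 (median 0.43), Sertoli cell markers for 3 of 3 (median 0.55) and genes of steroid-making cells for both tested (median 0.585). None of these was called by limma, and their part in the members' difference was not tested. The DES and BPA comparisons share their Control arrays.

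**Figure D4:**
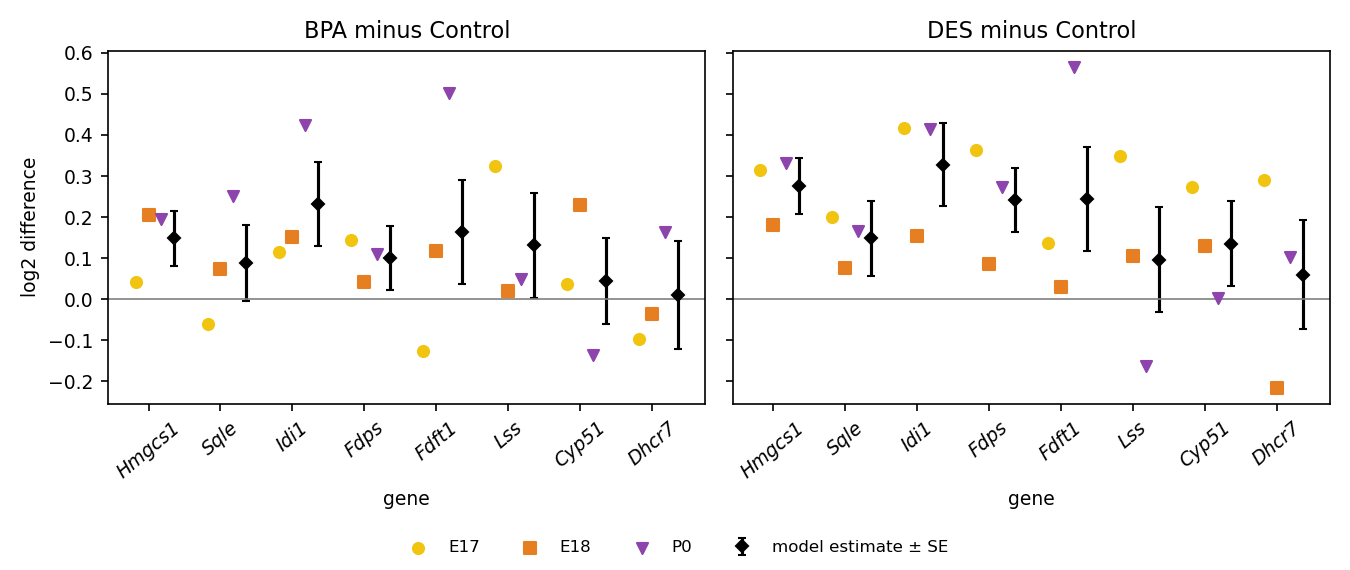
Log2 difference from Control for BPA (left) and DES (right) in each gene, as single array pairs at E17, E18 and P0 and as the limma estimate with its SE (black). At E17 all 8 DES points lie above 0, at 0.14 to 0.42, while 3 of 8 BPA points lie below 0.

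BPA was also set against DES directly, at doses that differ, so the values stand side by side and not as a comparison of potency. The estimate was lower with BPA for 7 of 8, with a median of -0.09, and Lss was at 0.035. With the E17 array left out, that median was -0.009 (BPA E17) or -0.02 (DES E17). It was -0.17 on leaving out DES E18, -0.14 on leaving out BPA P0, and -0.43 in the values as deposited. Limma called 0 of 8 (adjusted p = 0.708 to 0.963) and 0% of all probe sets, and 0 of 8 had an unadjusted p under 0.05, against 7.21% of all probe sets. The 95% intervals were -0.28 to 0.03 for Hmgcs1, -0.32 to 0.03 for Fdps and -0.33 to 0.13 for Idi1, which leave room for both signs. At E17 all 8 members were lower with BPA than with DES (median -0.26), at E18 and P0 4 of 8 were, again 1 array against 1. Over the ages, cornifying-epithelium genes were higher with BPA than with DES for 6 of 6 (median 1.755). Smooth muscle genes were higher for 5 of 5 (median 0.35) and hepatocyte markers for 3 of 4 (median 1.205). Skeletal muscle genes were lower for 5 of 8 (median -0.62). None of these was called by limma, and their part in the members' difference was not tested. Change of an agent's difference with age was tested as a linear step, which with 3 evenly spaced ages rests on the E17 and P0 arrays. The BPA term was called for 0 of 8 and 0.00741% of all probe sets, and the DES term for 0 of 8 and 0%. Fdft1 had the largest BPA step, 0.31 ± 0.12 log2 units per age (limma adjusted p = 0.547). The Fdft1 step was 0.12 on leaving out Control P0, 0.51 on leaving out Control E17, 0.40 on leaving out BPA P0, and 0.009 in the values as deposited. Unadjusted, the BPA step was under 0.05 for 1 of 8 members, against 8.56% of all probe sets, and the DES step for 0 of 8, against 7.22%.

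Across the 9 arrays the 8 genes had like profiles. Pearson's r between pairs of members ran from 0.588 (Fdft1 and Lss) to 0.968 (Hmgcs1 and Idi1), with a median of 0.806 over 28 pairs. These are descriptions over 9 arrays that share normalisation, agents and ages. The DES E17 array was the highest for 5 of 8 and the Control P0 array the lowest for 6 of 8, with mean deviations from each gene's own mean of 0.25 and -0.35 log2 units. All 8 were above their own mean on DES E17, DES E18 and BPA E18, and 0 of 8 were on any of the 3 P0 arrays. Over all arrays the members spanned 0.49 to 0.90 log2 units, with a median of 0.62, close to the median span of all tested probe sets (0.65). The 5 probe sets of other genes that most resembled the members' mean belonged to Mrpl34 (r = 0.978), a mitochondrial ribosomal protein, Sco2 (0.978), a copper chaperone of cytochrome oxidase, Ppa1 (0.976), the inorganic pyrophosphatase, Nsf (0.970), a membrane fusion ATPase, and Lman2 (0.966), a lectin of the secretory pathway.

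**Figure D5:**
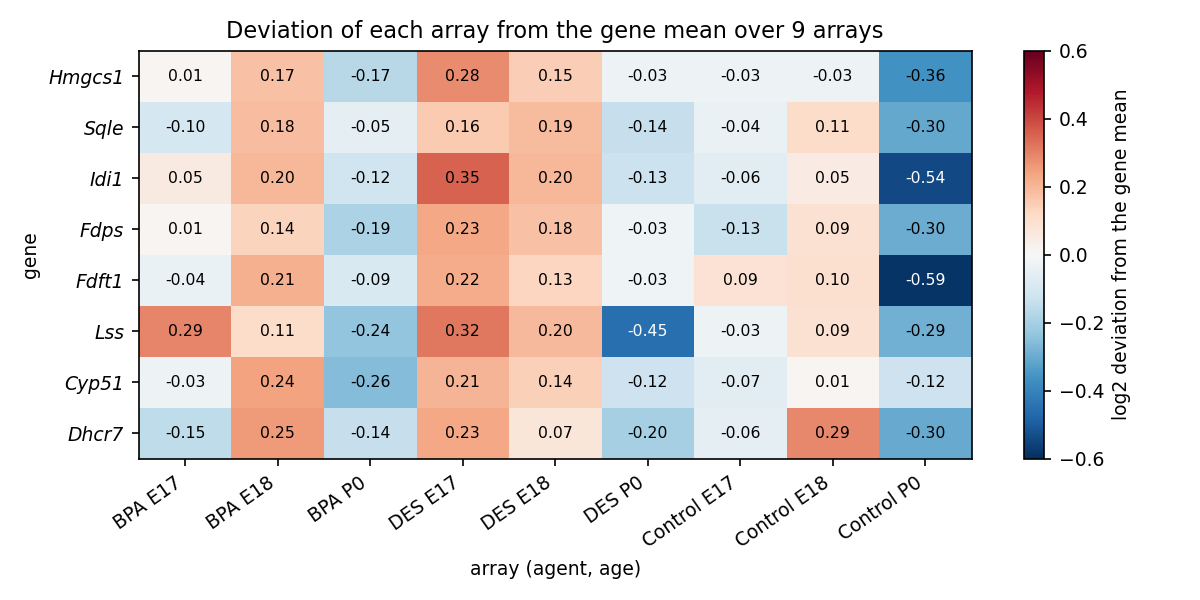
Log2 deviation of each array from the gene's mean over the 9 arrays, genes in rows and arrays in columns, red above and blue below the mean. The 3 P0 columns hold no value above 0, and the lowest cells are Fdft1 (-0.59) and Idi1 (-0.54) on Control P0.

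Other probe sets of the same genes were compared with the brightest. Of the 18 tested probe sets, 16 were lower at P0 than at E18. Within single agents, 15 of 18 were lower at P0 than at E18 with BPA, 16 with DES and 15 in Control. The 2 that were higher with DES were both of Hmgcs1, at 0.054 and 0.06. Averaged over agents, the 4 tested Hmgcs1 probe sets had P0 minus E18 differences of -0.28 to -0.20. They correlated at 0.664 to 0.897, the brightest being of the type (x_at) whose probes can match other sequences. Both Idi1 probe sets (r = 0.923), the 2 bright Fdft1 probe sets (r = 0.924) and the 2 bright Cyp51 probe sets (r = 0.931) had like profiles. The dim tested Cyp51 probe set, close to the brightness limit at 44.2, was at -0.11 ± 0.22 for P0 minus E18. It correlated at 0.057 and 0.235 with the bright Cyp51 probe sets. The other Idi1 probe set had a P0 minus E18 difference of -0.56 ± 0.15. Lss did not hold over its probe sets: the dimmer tested one, with signals of 182 to 228, was at -0.02 ± 0.13 for P0 minus E18 and 0.09 ± 0.13 for P0 minus E17, and it did not follow the brightest (r = -0.044). By agent, the dimmer Lss probe set was at 0.051 with BPA, -0.115 with DES and 0.017 in Control for P0 minus E18. The brightest Lss probe set is of a type (s_at) whose probes can be shared by several transcripts. The 2 other Fdft1 probe sets, close to the brightness limit at 55.1 and 44.5, were at 0.03 ± 0.24 and 0.48 ± 0.29. For the DES difference from Control, 14 of 18 probe sets were higher, Hmgcs1 reaching 0.48 ± 0.11 in 1 of its 4 and 0.14 ± 0.10 in another.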

How the data were processed

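Total UGS RNA was isolated with an RNeasy kit and biotin was incorporated when cRNA was transcribed, per the labels' protocols. The authors deposited linear intensities, 1 per probe set and array. MAS5 is named in the submitters' processing notes, with no version or scaling target. There were 45101 probe sets on 9 arrays, 64 of them controls, and 0 missing values. Precision is limited by having only 9 arrays.

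Intensities were quantile-normalised over all probe sets and transformed as log2(signal + 5.46), where 5.46 is the 10th percentile of normalised values, which understates folds of dim genes. Probe sets with a mean log2 value at or above the 40th percentile (5.54) were tested, 26999 without the controls. Limma 3.58.1 in R 4.3.3 fitted agent and age as factors to all 9 arrays (lmFit, eBayes with an intensity trend; 4 residual and 5.77 prior degrees of freedom), with Benjamini-Hochberg adjustment over the 26999 and a threshold of 0.05. Age steps per agent were fitted as linear terms, leaving 2 residual degrees of freedom. Errors after log2 differences are SEs from the model, and intervals are at 95%. The procedure was tested on simulated data with 2-fold and 4-fold changes. These are larger than the members' differences, so that test does not show whether differences of their size would be called.

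The study labels give no replicate numbers. Age is what pairs arrays across agents, so it is in the model. Alternatives were scaling, pseudocount, filter, 1 probe set per gene, no trend, no age term and leaving out each array. The 8 members and the 17 gene lists were chosen with earlier results of these data known; 104 of the 118 listed genes had a single-symbol probe set and the others were not analysed here. The text names all members, for each pathway list at most 4 genes per comparison, those with the largest differences (and Srebf2, added after its values were seen), every list gene that was called, at most 3 markers per list by mean level, and the 5 most similar probe sets. Beyond these, markers of steroid-making and Sertoli cells, and the muscle gene Ckm, were named after their values were seen. Genes were named from the platform annotation.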

Additional observations from a re-analysis of the deposited data

How the results depend on the processing

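Across 19 alternatives, 1 of them (without BPA P0 and Control P0) chosen after seeing the data, 0 members were called in any comparison that could be fitted. Directions of the 8 members were kept in 144 of 144 values for P0 against E18 and in 144 of 144 for P0 against E17. They were kept in 150 of 152 for DES against Control and in 134 of 152 for BPA against Control. These counts include values that could not differ from the main fit. The filter, 1 probe set per gene and no trend leave the estimates unchanged. So does leaving out an array whose agent or age is outside the comparison. P0 against E18 had a members' median of -0.44 to -0.32 when 1 array was left out. Values as deposited gave -0.54 with all probe sets at -0.17. With no age term (no replicate block) the agent medians stayed at 0.12 for BPA and 0.19 for DES. They could not differ, since each agent has 1 array at each age. The SEs did change, for Idi1 in BPA minus Control from 0.102 to 0.169, and no call changed.

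Values as deposited reversed BPA minus Control for Hmgcs1 (-0.06), Sqle (-0.16), Idi1 (-0.023), Fdps (-0.14), Fdft1 (-0.093), Lss (-0.13), Cyp51 (-0.22) and Dhcr7 (-0.25), BPA minus DES for Lss (-0.31), E18 minus E17 for Hmgcs1 (-0.08), Idi1 (-0.074), Fdps (-0.003), Fdft1 (-0.052) and Cyp51 (-0.013), the BPA age step for Hmgcs1 (-0.30), Sqle (-0.16), Idi1 (-0.15) and Dhcr7 (-0.13), and the DES age step for Hmgcs1 (-0.076) and Idi1 (0.005). Scaling to a common trimmed mean reversed BPA minus Control for Dhcr7 (-0.003), and for Hmgcs1 the BPA step (-0.01) and the DES step (-0.093). Without BPA P0 and Control P0, BPA minus Control was -0.004 for Fdft1 and -0.065 for Dhcr7, and BPA minus DES was -0.06 for Lss.

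With 1 array left out at a time, these results changed sign and had the ranges given (log2 units). BPA minus Control ran over Fdft1 -0.001 to 0.282, Cyp51 -0.05 to 0.122, Dhcr7 -0.055 to 0.123. DES minus Control ran over Lss -0.015 to 0.206, Dhcr7 -0.083 to 0.185. BPA minus DES ran over Sqle -0.137 to 0.027, Fdft1 -0.176 to 0.038, Lss -0.075 to 0.112, Dhcr7 -0.174 to 0.094. E18 minus E17 ran over Hmgcs1 -0.054 to 0.07, Idi1 -0.045 to 0.108, Fdft1 -0.061 to 0.157, Lss -0.173 to 0.016. The BPA age step ran over Hmgcs1 -0.08 to 0.234, Idi1 -0.037 to 0.346, Fdps -0.176 to 0.142, Lss -0.313 to 0.037, Cyp51 -0.368 to 0.195, Dhcr7 -0.11 to 0.371. The DES age step ran over Hmgcs1 -0.177 to 0.195, Sqle -0.113 to 0.079, Idi1 -0.205 to 0.201, Fdps -0.237 to 0.147, Fdft1 -0.072 to 0.501, Cyp51 -0.282 to 0.013, Dhcr7 -0.471 to 0.283. The cause was not tested.

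The members' median ran from -0.17 to -0.009 for BPA minus DES and from 0.006 to 0.19 for the BPA age step with 1 array left out, and was -0.43 and -0.23 as deposited. The Fdft1 BPA step ran from 0.12 to 0.51.

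Counts over all probe sets moved more. P0 against E17 had 25 calls, 1606 without the DES P0 array, 392 as deposited, 83 with 1 probe set per gene, 62 with a pseudocount of 32, 56 with a 60th percentile filter, 7 with no filter, 1 without both P0 arrays, and 0 without an intensity trend or without the DES E17 or Control E17 array. P0 against E18 had 0 calls, 663 without the DES P0 array and 7 as deposited. BPA against Control had 0 calls and 34 as deposited, BPA against DES 0 and 38, the BPA age step 2 and 448, and the DES age step 0 and 80.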

Other observations

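The other sterol enzymes also gave values for the agents that the account above did not cover. With DES 10 of 11 were higher than in Control (median 0.09, 0 called by limma), led by Pmvk, phosphomevalonate kinase, at 0.44 ± 0.21 and Hsd17b7, a sterol ketoreductase, at 0.42 ± 0.17 (adjusted p = 0.843 for both). With BPA 6 of 11 were higher (median 0.04, 0 called), with Pmvk at 0.53 ± 0.21 and Msmo1 at 0.39 ± 0.17. Pmvk signals were 361, 369 and 235 with BPA at E17, E18 and P0, 266, 252 and 387 with DES, and 214, 240 and 198 in Control. The BPA arrays were high before birth and the DES array was highest at birth. Stard4 was at 0.33 ± 0.11 for DES minus Control (adjusted p = 0.843). Fatty acid synthesis genes were lower with BPA for 8 of 10 (median -0.05) and higher with DES for 7 of 10 (median 0.09), with 0 called in each. Both differences share the Control arrays.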
